A study of Mus musculus with 2 samples.

Results

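The cluster of mir-17 to mir-92a, named after its first and last member, is a single transcript that carries 6 miRNA hairpins, and its arms were compared between tumor-associated macrophages (TAMs) and spleen macrophages (SMs) of BALB/c mice. Every row of the deposited table whose name is an arm of mir-17, mir-18a, mir-19a, mir-20a, mir-19b or mir-92a was taken, which gave 12 of the 717 mature miRNAs analysed. TAMs came from 4T1 tumors, a mouse mammary carcinoma line grown in the mammary fat pad of female mice that were 8 weeks old at injection, and were taken with anti-CD11b beads 3 weeks later. SMs came from the spleen of naïve healthy mice, whose age is not given for this experiment. Small RNA was sequenced as 1 library per group. CD11b is also carried by monocytes, neutrophils and NK cells, so the TAMs library can hold these cells. Not given in the sources used here are the number of mice behind each library and how macrophages were selected from the spleen.

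Because each group is a single library, no value could be checked against replicates, and p-values are left out. Levels are TPM, the reads of a miRNA scaled to a common library total (13324721 reads for TAMs, 15422872 for SMs before scaling), and a single read stood for 0.0750 TPM in TAMs, against 0.0648 TPM in SMs. A read covers a whole mature miRNA of 21 to 23 bases here, so no length correction is involved. Ratios are TPM in TAMs over TPM in SMs with exact 95% intervals, which cover counting error only, and PCR copies are not independent molecules. In bulk libraries such as these, fewer cells of a type and less RNA per cell cannot be told apart.

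The cluster, also called oncomiR-1, is transcribed under the control of MYC and E2F factors and is abundant in dividing cells and in lymphocyte progenitors. Its miRNAs fall into groups by the seed, bases 2 to 8 of the mature miRNA, which pairs with target messenger RNAs. The miR-17 seed group restrains cell cycle inhibitors such as Cdkn1a, and the miR-19 group carries much of the oncogenic activity of the cluster in mouse B-cell lymphoma. In human monocyte differentiation, miR-17-5p, miR-20a-5p and the related miR-106a-5p restrain AML1, a factor that drives the receptor of CSF1.

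The 6 hairpins lie within 836 bases of chromosome 14 (plus strand, GRCm38), and all of them overlap exon 2 of the noncoding host gene Mir17hg (chr14:115042879-115046727, GENCODE M21). The first is Mir17 at chr14:115043671-115043754. It is followed by Mir18 at chr14:115043851-115043946, Mir19a at chr14:115044000-115044081 and Mir20a at chr14:115044157-115044263. The last are Mir19b-1 at chr14:115044305-115044391 and Mir92-1 at chr14:115044427-115044506. The mature sequences of the main arm of each hairpin are given in this order, as RNA and with the seed in capitals, because the arms are compared by seed:
mmu-miR-17-5p: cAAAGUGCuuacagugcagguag
mmu-miR-18a-5p: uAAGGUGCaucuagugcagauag
mmu-miR-19a-3p: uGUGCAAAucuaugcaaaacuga
mmu-miR-20a-5p: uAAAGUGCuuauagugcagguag
mmu-miR-19b-3p: uGUGCAAAuccaugcaaaacuga
mmu-miR-92a-3p: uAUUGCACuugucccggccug

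These 6 arms hold 4 distinct seeds. mmu-miR-17-5p and mmu-miR-20a-5p share AAAGUGC and differ by C1U and C12U, counted from the 5′ end with the base of mmu-miR-17-5p first. mmu-miR-19a-3p and mmu-miR-19b-3p share GUGCAAA and differ by U11C alone, so reads could be split between them where a base was misread. Of the 12 deposited arm sequences 11 equalled a RefSeq mature sequence (GRCm38.p6), and miR-19a-5p was taken from the deposited table only. mmu-miR-19b-3p and mmu-miR-92a-3p are also encoded, with the same mature sequence, by Mir19b-2 and Mir92-2 on chromosome X. Their counts therefore sum both loci (the passenger arms of the X-linked copies were not analysed here), while the other 10 arms were matched to chromosome 14 only or, for miR-19a-5p, were not placed.

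The whole cluster was lower in TAMs. Its 12 arms summed to 4742 TPM in TAMs and 7314 TPM in SMs. Their ratio was 0.648 (0.642 to 0.655). These were 63188 reads, or 0.862% of the known miRNA reads, in TAMs and 112809 reads, or 1.12%, in SMs. The choice of total moves every ratio alike: scaled to known miRNA reads instead, each ratio is 1.19 times as large, a shift of 0.25 on the log2 scale, and that of the cluster is 0.772. Without mmu-miR-92a-3p alone, which holds most of the reads, the ratio was 0.416 (0.409 to 0.423), and without both arms that a second locus also encodes it was 0.559 (0.545 to 0.573).

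All 6 main arms were lower in TAMs, by 1.21-fold to 3.09-fold, and stayed lower under each of the 4 other scalings tried. mmu-miR-92a-3p, a miRNA known to restrain the growth of blood vessels, was the most abundant. Its level was 3419 TPM in TAMs and 4135 TPM in SMs, for a ratio of 0.827 (0.817 to 0.837). mmu-miR-17-5p had 235 TPM in TAMs, against 307 TPM in SMs, a ratio of 0.767 (0.733 to 0.803). mmu-miR-20a-5p had 189.6 TPM in TAMs, against 282 TPM in SMs, a ratio of 0.672 (0.640 to 0.706). These 3 arms were each less than 2-fold lower.

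The other 3 main arms were more than 2-fold lower, but scaled to known miRNA reads this no longer held for mmu-miR-18a-5p, with a ratio of 0.518 (0.492 to 0.545). mmu-miR-18a-5p, which restrains the glucocorticoid receptor gene Nr3c1, had 154 TPM in TAMs, against 354 TPM in SMs, a ratio of 0.435 (0.413 to 0.458). mmu-miR-19a-3p had 84.6 TPM in TAMs, against 247 TPM in SMs, a ratio of 0.342 (0.320 to 0.366). mmu-miR-19b-3p had 625 TPM in TAMs, against 1929.9 TPM in SMs, a ratio of 0.324 (0.316 to 0.332). The miR-19 arms thus had the lowest ratios of the main arms, from 2 hairpins that mir-20a separates.

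A minimum of 10 TPM in either library was passed by 264 miRNAs of the table. On the scale of log2(TPM + 1) 32.6% of these were at least 2-fold lower in TAMs and 24.2% at least 2-fold higher. These were 86 lower and 64 higher miRNAs, and scaled to known miRNA reads the order turned round, with 68 lower and 74 higher of 268. Of the 12 arms 8 passed this minimum, the 6 main arms among them, and 4 of the 8 were at least 2-fold lower and 0 higher. The median log2 ratio was −0.83 over the 8 arms, −0.88 over the 6 main arms and −0.36 over the 264 miRNAs. The count of main arms at least 2-fold lower, 3 of 6, was 2 of 6 when scaled to known miRNA reads and 0 at a threshold of 4-fold. Arms of 1 transcript are not independent, so these counts describe the cluster and are not a test.

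**Figure D1:**
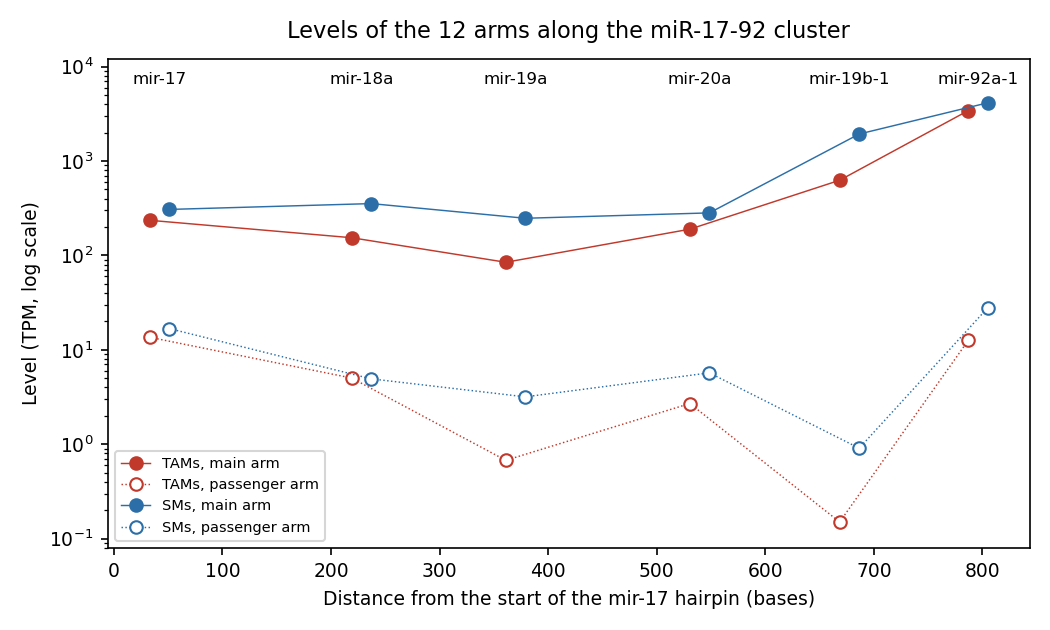
Level of each arm (TPM, log scale) against the distance of its hairpin's middle from the start of the mir-17 hairpin, for TAMs (red) and SMs (blue), with filled points for main arms and open points for passenger arms, the libraries set slightly apart for legibility and lines only joining points. Every main arm was lower in TAMs, from 84.6 TPM for miR-19a-3p to 3419 TPM for miR-92a-3p, and the points of miR-19b-3p and miR-92a-3p also hold reads of the X-linked copies.

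Arms of the cluster were present at very unequal levels in both libraries. The most abundant, mmu-miR-92a-3p, exceeded the least abundant main arm, mmu-miR-19a-3p, 40.4-fold in TAMs (38.1 to 42.9) and 16.7-fold in SMs (16.2 to 17.3). mmu-miR-92a-3p ranked 19 among the miRNAs of TAMs and 27 among those of SMs, while mmu-miR-19a-3p ranked 128 in TAMs and 81 in SMs. The SD of log2 TPM over the 6 main arms was 1.91 in TAMs and 1.73 in SMs. Levels of different arms also carry the preferences of ligation and PCR for a sequence, which were not measured here.

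The spread was smaller among the 4 main arms encoded on chromosome 14 alone, where the highest exceeded the lowest 2.78-fold in TAMs (2.60 to 2.98) and 1.43-fold in SMs (1.37 to 1.49). The arms left out, mmu-miR-92a-3p and mmu-miR-19b-3p, were the most abundant main arms of both libraries, so the spread had to fall without them. The part of the second locus in it was not tested. In SMs these 4 lay close together, with mmu-miR-18a-5p the highest, mmu-miR-17-5p and mmu-miR-20a-5p between, and mmu-miR-19a-3p the lowest. In TAMs mmu-miR-17-5p was the highest of the 4, and mmu-miR-18a-5p lay below mmu-miR-20a-5p. mmu-miR-17-5p had 1.53 times the reads of mmu-miR-18a-5p in TAMs and 0.867 times its reads in SMs.

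The composition of the cluster's output does not depend on the total used for scaling, and it differed between the libraries. Each group here also counts the passenger arms of its hairpins, whose own seeds differ from that of the group. The miR-19 group held 15.0% of the reads of the cluster in TAMs (exact 95% interval 14.7 to 15.3%) and 29.8% in SMs (29.6 to 30.1%), an odds ratio of 0.415 (0.404 to 0.425). The miR-92a group held 72.4% in TAMs (72.0 to 72.7%) and 56.9% in SMs (56.6 to 57.2%), an odds ratio of 1.98 (1.94 to 2.02). The miR-18a group held 3.35% in TAMs (3.21 to 3.50%) and 4.90% in SMs (4.78 to 5.03%). Of the 4 groups miR-17/20a differed least in share, with 9.31% in TAMs (9.08 to 9.53%) and 8.36% in SMs (8.20 to 8.52%). These shares include mmu-miR-19b-3p and mmu-miR-92a-3p, which are also encoded on chromosome X. Without those arms miR-17/20a held 63.2% in TAMs and 48.9% in SMs and no longer differed least. The shares sum to the whole, so the share of a group cannot differ without that of others.

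**Figure D2:**
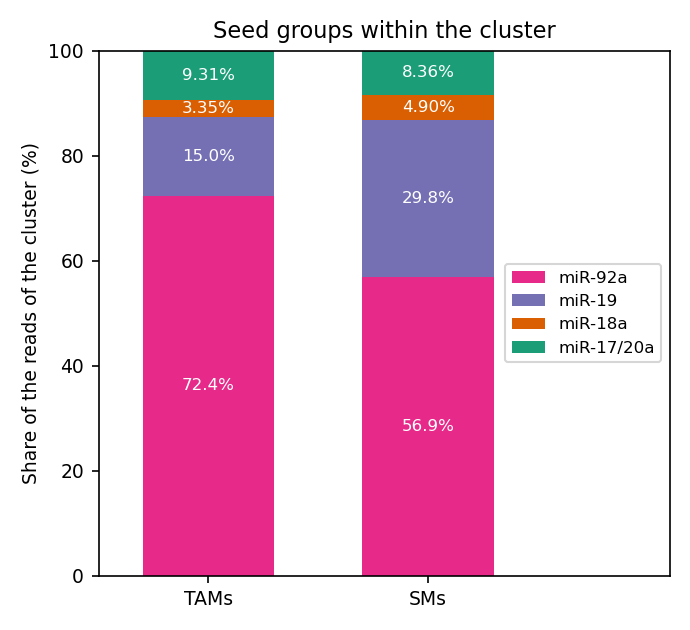
Share of the reads of the cluster (%, all 12 arms) held by each seed group, with TAMs on the left and SMs on the right. Passenger arms are counted in the group of their main arm. The miR-19 group takes 15.0% of the bar of TAMs and 29.8% of that of SMs, and the miR-92a group 72.4% of that of TAMs and 56.9% of that of SMs.

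Pairs of main arms were compared within each library, where the library total cancels. Of 15 pairs 14 had a change between the libraries whose counting interval left out 1. At such read counts even small changes do so, and the share over pairs of other miRNAs was not computed. The largest change was that of mmu-miR-19b-3p over mmu-miR-92a-3p. Their hairpins are neighbors on the transcript, but both arms are also encoded on chromosome X, so their counts are not of this transcript alone. The ratio of these arms was 0.183 in TAMs and 0.467 in SMs, so it was 0.392 times as large in TAMs (0.381 to 0.403). mmu-miR-17-5p over mmu-miR-20a-5p, of 1 seed, was 1.24 in TAMs and 1.09 in SMs, a change of 1.14 times (1.07 to 1.22).
The pair whose interval held 1 was mmu-miR-19a-3p over mmu-miR-19b-3p. It was 0.135 in TAMs and 0.128 in SMs, a change of 1.06 times (0.984 to 1.13). These arms come from separate hairpins and share their seed and 22 of 23 bases. Differences between animals or preparations, which these intervals leave out, can be far larger than counting error.

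Each hairpin also yields a passenger arm, which is usually degraded when the main arm enters Argonaute. The 6 passenger arms summed to 34.7 TPM in TAMs, against 59.5 TPM in SMs, a ratio of 0.584 (0.521 to 0.654). Only those of mir-17 and mir-92a-1 reached 10 TPM, and the others rest on few reads. miR-17-3p, with the seed CUGCAGU, had 181 reads, or 13.6 TPM, in TAMs and 259 reads, or 16.8 TPM, in SMs, a ratio of 0.809 (0.665 to 0.982) near that of its main arm. Scaled to known miRNA reads, that interval would include 1.
miR-92a-1-5p had 168 reads, or 12.6 TPM, in TAMs and 431 reads, or 27.9 TPM, in SMs, a ratio of 0.451 (0.375 to 0.540). This arm comes from the chromosome 14 locus alone. mmu-miR-92a-3p exceeded it 271-fold in TAMs and 148-fold in SMs, a change of 1.83 times (1.53 to 2.19). How many reads of the main arm come from the second locus cannot be told from the mature sequence.

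The passenger arm of mir-18a stood apart from its main arm in the other direction. miR-18a-3p had 67 reads, or 5.03 TPM, in TAMs and 76 reads, or 4.93 TPM, in SMs, a ratio of 1.02 (0.724 to 1.44), while mmu-miR-18a-5p was 2.30-fold lower. The passenger arm made up 3.16% of the reads of the hairpin in TAMs (2.46 to 4.0%) and 1.37% in SMs (1.08 to 1.72%). The ratio of main to passenger arm was 30.6 in TAMs and 71.8 in SMs, a change of 0.426 times (0.306 to 0.595).
For the other 4 hairpins the interval of this change held 1. miR-20a-3p had 36 reads in TAMs and 88 in SMs, a ratio of TPM of 0.474 (0.312 to 0.705). miR-19a-5p had 9 reads in TAMs and 49 in SMs, a ratio of 0.213 (0.0918 to 0.437). miR-19b-1-5p had 2 reads in TAMs and 14 in SMs, a ratio of 0.165 (0.0182 to 0.720), and this arm is specific to the chromosome 14 locus. Both passenger arms of the miR-19 hairpins had lower ratios than the other 4 passenger arms. Their intervals overlap those of miR-20a-3p and miR-92a-1-5p, and the interval of miR-19b-1-5p also overlaps that of miR-17-3p.

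**Figure D3:**
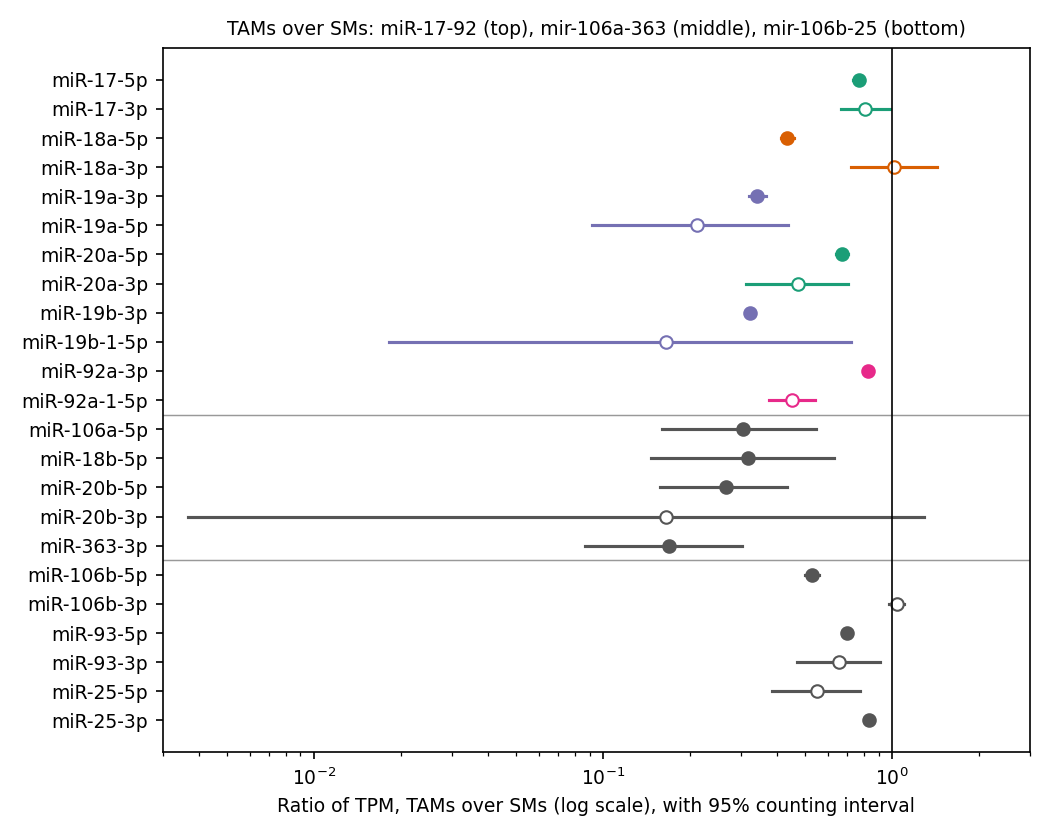
Ratio of TPM in TAMs over SMs (log scale) with exact 95% counting intervals for the 12 arms of the cluster and for arms of both paralog clusters, with filled points for main arms, open points for passenger arms, colors for the seed groups of the cluster and gray for paralogs. The line marks a ratio of 1, miR-19a-3p and miR-19b-3p lie at 0.342 and 0.324, and miR-92a-3p and miR-25-3p lie together at 0.827 and 0.834.

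Mammals carry a pair of related clusters. The mir-106a-363 cluster on chromosome X holds the second copies of mir-19b and mir-92a, and 7 of its arms were analysed here. They summed to only 4.58 TPM in TAMs, against 18.7 TPM in SMs, a ratio of 0.244 (0.182 to 0.323). The most abundant of them in TAMs, miR-20b-5p, had 21 reads, or 1.58 TPM, in TAMs and 91 reads, or 5.90 TPM, in SMs. miR-106a-5p differs from mmu-miR-17-5p by U10A alone and had 15 reads in TAMs and 57 in SMs, so misread bases of its abundant relative could add to it.
miR-363-3p, of the miR-92 seed, had 13 reads in TAMs and 89 in SMs, a ratio of TPM of 0.169 (0.0866 to 0.304). miR-18b-5p had 11 reads in TAMs and 40 in SMs, a ratio of 0.318 (0.147 to 0.632). miR-18b-3p and miR-363-5p had 0 reads in TAMs, which allows up to 0.225 TPM, and at most 3 reads in SMs. The 7 arms analysed for the X-linked cluster thus summed to far less than the 698 TPM in TAMs and 1249 TPM in SMs of the 10 arms without a known second locus, although miR-19b-1-5p of chromosome 14 was itself as rare.

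The mir-106b-25 cluster lies on chromosome 5 and holds members of the miR-17 and miR-92 seed groups but none of miR-18 or miR-19. Its 6 arms summed to 5195 TPM in TAMs, against 6610 TPM in SMs, a ratio of 0.786 (0.778 to 0.794). miR-106b-5p had 141 TPM in TAMs, against 266 TPM in SMs, a ratio of 0.530 (0.502 to 0.560). The other arm of its hairpin, miR-106b-3p, had 160 TPM in TAMs, against 154 TPM in SMs, a ratio of 1.04 (0.980 to 1.10). A difference between arms like that of mir-18a was thus also present in mir-106b. miR-93-5p had 1369 TPM in TAMs, against 1960 TPM in SMs, a ratio of 0.699 (0.686 to 0.712).
Another main arm of it, miR-25-3p, shares the seed of mmu-miR-92a-3p and 18 of its 21 bases. It had 3517 TPM in TAMs, against 4217 TPM in SMs, a ratio of 0.834 (0.824 to 0.844). The counts of mmu-miR-92a-3p over those of miR-25-3p were 0.972 in TAMs and 0.981 in SMs, a change of 0.991 times (0.975 to 1.01). So the miR-92 members of both clusters had nearly equal levels and nearly equal ratios, although they come from different chromosomes. The count of mmu-miR-20a-5p over that of miR-93-5p was likewise similar, with 0.138 in TAMs and 0.144 in SMs. The change was 0.962 times (0.913 to 1.01). Other compared pairs of this seed changed more. mmu-miR-17-5p over miR-106b-5p was 1.67 in TAMs and 1.15 in SMs, a change of 1.45 times (1.35 to 1.55). mmu-miR-17-5p over miR-93-5p was 0.172 in TAMs and 0.157 in SMs, a change of 1.10 times (1.05 to 1.15).

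Over the whole table the seed families were lower in TAMs in the same order as the seed groups within the cluster, which share reads with them. The miR-19 family, whose members in the table are miR-19a-3p and miR-19b-3p, had 709.7 TPM in TAMs, against 2177 TPM in SMs, a ratio of 0.326 (0.319 to 0.333). The miR-18 family had a ratio of 0.434 (0.413 to 0.457), and miR-18a-5p held 99.5% of its reads in TAMs and 99.3% in SMs. The miR-17 family of 6 arms had 1938 TPM in TAMs, against 2824 TPM in SMs, a ratio of 0.686 (0.676 to 0.697). The cluster supplied 21.9% of its reads in TAMs (21.4 to 22.4%) and 20.8% in SMs (20.5 to 21.2%), and miR-93-5p supplied most of the rest.
The miR-92 family of 5 arms had 6973 TPM in TAMs, against 8435 TPM in SMs, a ratio of 0.827 (0.820 to 0.834). miR-92a-3p held 49.0% of its reads in TAMs and 49.0% in SMs. The rare members of this family differed widely. miR-92b-3p, from chromosome 3, had 16.7 TPM in TAMs, against 5.64 TPM in SMs, a ratio of 2.95 (2.30 to 3.83). miR-32-5p, from chromosome 4, had 19.7 TPM in TAMs, against 71.5 TPM in SMs, a ratio of 0.276 (0.240 to 0.316).

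Members of this family share a seed but not their base composition. Of these, miR-92b-3p and miR-32-5p were added after their values were seen. Those outside the cluster are shown, with the seed in capitals, so that base composition can be set beside the ratios:
mmu-miR-92b-3p: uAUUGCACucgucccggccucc
mmu-miR-25-3p: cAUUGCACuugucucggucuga
mmu-miR-363-3p: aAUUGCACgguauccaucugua
mmu-miR-32-5p: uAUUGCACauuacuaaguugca

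GC content was 63.6% in miR-92b-3p, 57.1% in miR-92a-3p, 50% in miR-25-3p, 40.9% in miR-363-3p and 31.8% in miR-32-5p. The ratio was above 1 in the first of these, near 0.83 in the next pair and below 0.28 in the last pair. Of the last pair, miR-363-3p rests on 13 reads in TAMs and 89 in SMs and did not pass the minimum. Arms of the miR-17 family past the minimum did not keep such an order. The ratio was 0.699 in miR-93-5p (52.2% GC) and 0.767 in miR-17-5p (47.8%). It was 0.530 in miR-106b-5p (42.9%) and 0.672 in miR-20a-5p (39.1%). Below the minimum, miR-20b-5p and miR-106a-5p of chromosome X, both of 47.8% GC, had ratios of 0.267 and 0.305. They rest on 21 and 15 reads in TAMs and 91 and 57 in SMs. Within the cluster GC content was 57.1% in mmu-miR-92a-3p and 47.8% in mmu-miR-17-5p, the main arms with the highest ratios. It was 43.5% in mmu-miR-18a-5p, 34.8% in mmu-miR-19a-3p and 39.1% in mmu-miR-19b-3p. mmu-miR-20a-5p also had 39.1%, with a ratio of 0.672, about 2.08 times that of mmu-miR-19b-3p (1.97 to 2.19).

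Across all miRNAs the relation with GC content was weak. Over the 256 miRNAs outside the cluster that passed the minimum, Pearson's r between log2 ratio and GC content was 0.19 and Spearman's rho 0.19, and these points share both libraries and their scaling. The 48 miRNAs of at most 40% GC had a median ratio of 0.511 (computed from TPM + 1), and 23 of them were at least 2-fold lower in TAMs and 6 at least 2-fold higher. The 109 miRNAs between 40% and 50% had a median ratio of 0.935 and the 99 of at least 50% one of 0.919. The part of base composition in the low ratios of the miR-19 arms was not tested.

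**Figure D4:**
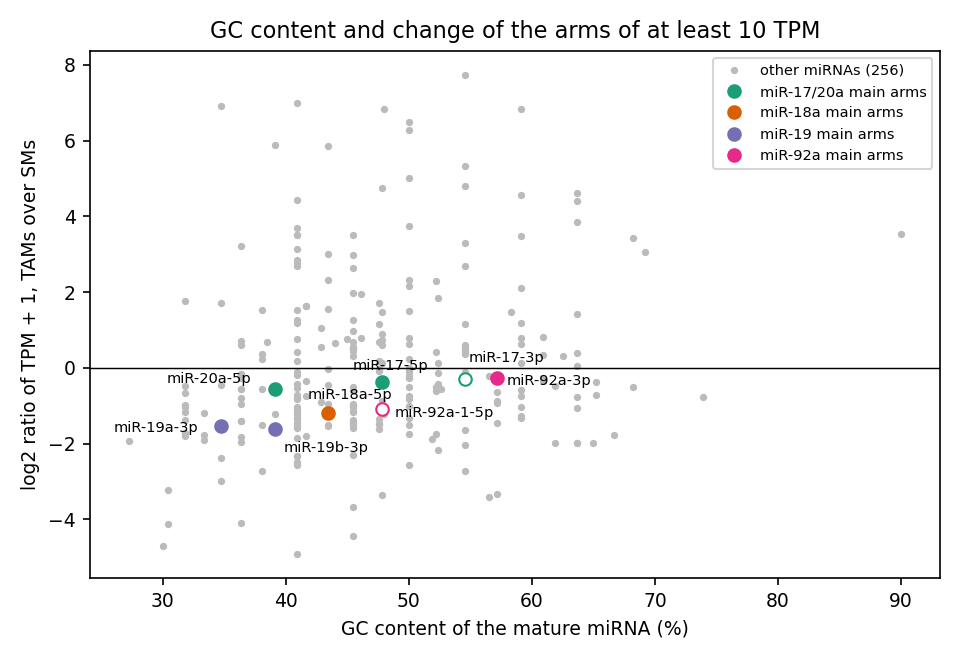
GC content of the mature miRNA (%) against the log2 ratio of TPM + 1 in TAMs over SMs, for the 8 arms of the cluster past the minimum of 10 TPM (colored by seed group, open points for passenger arms) and 256 other miRNAs (gray). The miR-19 arms lie at the lower left of the colored points and miR-92a-3p and miR-17-3p at the upper right, within a wide gray cloud whose Pearson's r is 0.19.

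Markers of cell types, among them leukocytes and myeloid cells, which include macrophages, also differed between the libraries. Both arms of mir-142, a miRNA of leukocytes, summed to 6302 TPM in TAMs, against 26130 TPM in SMs. Both arms of mir-223, a miRNA of myeloid cells, summed to 1449 TPM in TAMs, against 8430 TPM in SMs, so these markers were present in both libraries. All 4 arms were at least 2-fold lower in TAMs, with ratios of 0.126 to 0.348, which lie below the 0.648 of the summed cluster. Of 4 markers of lymphocytes, 3 were at least 2-fold lower. Ratios of the 4 were 0.242 to 0.852, and they summed to 1170 TPM in TAMs and 4004 TPM in SMs. All 5 markers of red blood cells were at least 2-fold lower, and summed to 2701 TPM in TAMs and 11282 TPM in SMs. All 7 markers of epithelial cells were at least 2-fold higher, and summed to 1897 TPM in TAMs and 284 TPM in SMs. No marker of these lists was at 0 reads. Of the stromal list 4 of 5 names matched a row, and 3 of these were at least 2-fold higher. These 4 summed to 2599 TPM in TAMs and 2439 TPM in SMs, nearly the same level. The unmatched name was miR-145-5p, which the table holds as miR-145a-5p, with a log2 ratio of 0.41 on the scale of TPM + 1. Both endothelial markers were within 2-fold. The TAMs preparation included lysis of red blood cells, and sorted cells were checked by flow cytometry for CD11b, per the study's methods and supplement. The part of these cell types in the levels of the cluster was not tested, and tissue and condition cannot be told apart in this design.

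The miRNAs whose ratio was nearest to that of the summed cluster were looked for among 130 others that reached 100 TPM in either library, by the difference in log2 ratio, which rests on only 2 libraries. They were miR-191-5p, with a ratio of 0.654 (0.652 to 0.656), miR-22-3p, with 0.659 (0.656 to 0.662), and miR-98-5p, with 0.634 (0.614 to 0.655). Their log2 ratios differed from that of the cluster by 0.012, 0.024 and 0.031.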

How the data were processed

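A TruSeq small RNA library was made from 3 µg of RNA for each of the groups, TAMs and SMs. The authors matched reads to known mature mouse miRNAs, allowing variants of 2 bp at the ends, and deposited a read count per miRNA and library. Bowtie2 is named in the submitters' processing notes. Genome build and miRBase release: not given in the sources used here. The deposited TPM is the count scaled by a total per library, which exceeds the known miRNA reads, 7333652 in TAMs (55.0% of the total) and 10108834 in SMs (65.5%). The deposited p-value, ratio and mark of a chi-square comparison were not used. Emptied lines, 2 in number, were left out.

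Ratios have exact conditional binomial intervals, shares exact Clopper-Pearson intervals, and odds ratios and changes of ratios log-scale intervals (exact conditional below 50 reads), all at 95% (scipy 1.17.1 and pandas 2.3.3 in Python 3.11.15). Calls used log2(TPM + 1), 2-fold and a minimum of 10 TPM in TAMs or SMs. No p-values were computed. Other scalings were TMM factors (edgeR 4.0.16), size factors (DESeq2 1.42.0, R 4.3.3), known miRNA reads, and totals that leave out the 10 top miRNAs of either library. The calculations were tested on simulated data.

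The named miRNAs are all arms of the cluster, those of both paralog clusters, other miRNAs of the same seeds (miR-32-5p and miR-92b-3p, added after their values were seen) and the 3 with the nearest ratio. Members and lists were chosen with earlier results of these data known. Sequences and positions were taken from the deposited table and RefSeq (GRCm38.p6), with the host gene from GENCODE M21.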

Additional observations from a re-analysis of the deposited data

How the results depend on the processing

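No paired analysis was possible because a group is a single library, and leaving out a replicate was not possible either. The ratio of the summed cluster, 0.648, was 0.688 with TMM factors, 0.680 with DESeq2 size factors, 0.772 with known miRNA reads, 0.585 with totals without the 10 most abundant miRNAs, 0.559 without miR-19b-3p and miR-92a-3p, and 0.416 without miR-92a-3p. Over these 4 scalings all 24 values of the 6 main arms were below 1, and the nearest to 1 was 0.985 (0.973 to 0.997) for miR-92a-3p with known miRNA reads. A scaling multiplies every ratio alike, so the order of the arms could not change. Of 6 main arms, 3 were at least 2-fold lower, 2 with known miRNA reads (miR-18a-5p became 0.518), and 0 at least 4-fold lower. Of all miRNAs, 86 lower and 64 higher became 48 and 34 at 100 TPM, 22 and 42 at 4-fold, 115 and 102 without a minimum, and 68 and 74 with known miRNA reads.

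The spread of the main arms, 40.4-fold in TAMs and 16.7-fold in SMs, was 7.39-fold in TAMs and 7.80-fold in SMs without miR-92a-3p, and 2.78-fold in TAMs and 1.43-fold in SMs without miR-19b-3p and miR-92a-3p. Without those 2 arms the shares in TAMs and SMs were 63.2% and 48.9% for miR-17/20a, 22.8% and 28.7% for miR-18a, 12.2% and 20.1% for miR-19, and 1.81% and 2.24% for miR-92a. With main arms only, miR-17/20a held 9.03% in TAMs and 8.12% in SMs, and the other groups stayed within their counting intervals. With 1 library per group, no interval holds the spread between animals or preparations.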
